A study of Drosophila melanogaster with 6 samples.

Results

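The 73 mitochondrial ribosomal protein genes of Drosophila melanogaster were compared between eye disc nuclei that expressed a misfolding rhodopsin and nuclei that did not. Members were all rows of the count table whose symbol begins with mRpL or mRpS followed by a digit. They numbered 73 of 17433 genes, with 47 named for the large subunit (mRpL) and 26 named for the small subunit (mRpS). Large and small subunit genes are told apart by symbol throughout. The rule used the symbol alone. The filter on low counts kept 72 of the 73 members and 11818 genes in all.

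The nuclei came from eye imaginal discs of larvae late in the third instar, the epithelial sacs from which the adult compound eye is built. Libraries of GMR>Rh-1G69D carried GMR-GAL4, uas-Rh-1G69D and uas-EGFP::Msp300-KASH. WT libraries carried GMR-GAL4 and uas-EGFP::Msp300-KASH and lacked the rhodopsin transgene, so that the GAL4 driver and the nuclear tag were shared by both genotypes. GMR-GAL4 is active behind the morphogenetic furrow, where photoreceptors and their support cells differentiate. Rh-1G69D is a mutant Rhodopsin-1 that misfolds in the endoplasmic reticulum (ER) and imposes ER stress. The EGFP tag sits on the nuclear envelope, and tagged nuclei were pulled down with anti-EGFP antibodies before total RNA was extracted. The RNA thus came from a preparation of nuclei. The discs of many larvae were pooled in each of the 3 libraries per genotype. The comparison asked how genes respond to ER stress in these cells.

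Mitochondria hold their own ribosome, which translates the few membrane subunits of the respiratory chain and ATP synthase that the mitochondrial genome encodes. Its ribosomal RNAs come from the mitochondrial genome, whereas all of its proteins are encoded in the nucleus, made in the cytosol and imported. Many of these proteins descend from bacterial ribosomal proteins and keep their numbers, and the others are found only in mitochondria. In flies, partial loss of the small subunit protein encoded by tko causes bang sensitivity and slow development, a standard model of impaired mitochondrial translation.

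Counts assigned to genes totalled 21773452 to 30884519 per library. The rhodopsin gene ninaE, to which transcripts of the transgene and of the endogenous gene both map, had 146, 175 and 220 CPM (counts scaled to 1 common library size) in GMR>Rh-1G69D replicates 1 to 3, against 3.21, 36.9 and 2.22 CPM in WT replicates 1 to 3. All 3 libraries with the transgene were above all 3 without it, and WT replicate 2 held more than the other WT libraries. WT replicate 3 stood apart in another way. Its summed level of 4 fat body markers was 558 CPM, against 7.45 to 45.9 CPM in GMR>Rh-1G69D and 20.3 and 31.8 CPM in the other WT libraries. Libraries were also placed on the first principal component of all tested genes (45.6% of the variance). Their positions are fractions of the distance from the WT mean, which includes WT replicate 3, to the GMR>Rh-1G69D mean. WT replicate 3 lay at 0.40, between the GMR>Rh-1G69D libraries at 0.85 to 1.16 and the other WT libraries at -0.21 and -0.19. Values without WT replicate 3 are therefore given beside the results that rest on it. Of the 8 markers of differentiating eye cells, 6 were lower in GMR>Rh-1G69D by edgeR's quasi-likelihood test, with a summed level of 1233 to 1428 CPM against 2069 to 3549 CPM in WT. Muscle markers summed to 357 to 647 CPM in GMR>Rh-1G69D and 192 to 269 CPM in WT, with 3 of 4 higher. Hemocyte markers summed to 331 to 359 CPM in GMR>Rh-1G69D and 191 to 236 CPM in WT, with Hml as the only one of 6 that was higher. None of the 4 glial markers was called, at 262 to 349 CPM in GMR>Rh-1G69D and 324 to 537 CPM in WT. Of the 4 antennal markers, salm and dan were lower, and the list summed to 297 to 360 CPM in GMR>Rh-1G69D and 404 to 668 CPM in WT.

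As a group, the mitochondrial ribosomal protein genes took a larger part of the RNA in every GMR>Rh-1G69D library than in any WT library. Their levels, in CPM after TMM scaling, summed to 1047, 1155 and 1150 in GMR>Rh-1G69D replicates 1 to 3, against 538, 586 and 947 in WT replicates 1 to 3. The groups did not overlap, and WT replicate 3 was much closer to the GMR>Rh-1G69D libraries than to the other WT libraries. The mean was 1117 ± 61.2 CPM in GMR>Rh-1G69D and 690 ± 223 CPM in WT (SD, n = 3 each), a ratio of 1.62, and the ratio was 1.99 without WT replicate 3. As a share of all counts on genes, the members took 0.109%, 0.121% and 0.116% in GMR>Rh-1G69D, against 0.0477%, 0.0632% and 0.0897% in WT. Both subunits had this order. Large subunit genes summed to 603, 707 and 697 CPM in GMR>Rh-1G69D, against 301, 341 and 586 CPM in WT. Small subunit genes summed to 444, 448 and 453 CPM in GMR>Rh-1G69D, against 237, 244 and 360 CPM in WT. In pooled nuclei, a shift in the mix of cell types and a change of RNA per nucleus cannot be told apart, and the part that the eye, muscle, hemocyte and fat body signals above had in these sums was not tested.

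**Figure D1:**
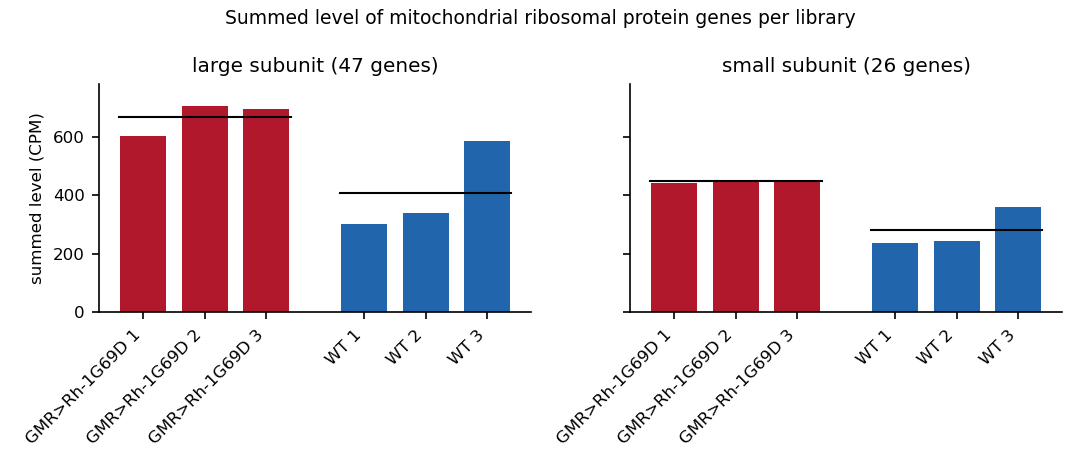
Summed level in CPM of the 47 large subunit genes (left) and the 26 small subunit genes (right) in each of the 6 libraries, with a line at the mean of each genotype. The large subunit sum was 603 to 707 CPM in GMR>Rh-1G69D and 301 to 586 CPM in WT, and the highest WT bar in both panels is replicate 3.

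Gene by gene, the difference was broad, small and for the most part not past the threshold. Of the 72 tested members, 1 was higher in GMR>Rh-1G69D at an adjusted p under 0.05 in edgeR's quasi-likelihood test, against 1.24% of all tested genes. None was lower, against 3.72% of all tested genes. The 1 member was mRpS6. At an unadjusted p under 0.05, 24 members were higher, against 11.0% of all tested genes, and 0 were lower, against 12.8%. At an adjusted p under 0.1, 5 members were higher, against 3.31% of all tested genes. The estimate was above 0 for 70 of 72 members (97.2%), against 52.5% of all tested genes. The median log2 fold change of the members was 0.70, against 0.04 over all tested genes. It ran from -0.06 for mRpS5 to 2.14 for mRpS6, and the standard error of a member had a median of 0.39. Thus 16 members had at least 2 times the WT level, 38 had a log2 fold change between 0.5 and 1, 16 lay between 0 and 0.5, and 2 lay below 0. The 95% interval included a log2 fold change of 1 for 66 of 72 members and lay wholly above 0 for 24.

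**Figure D2:**
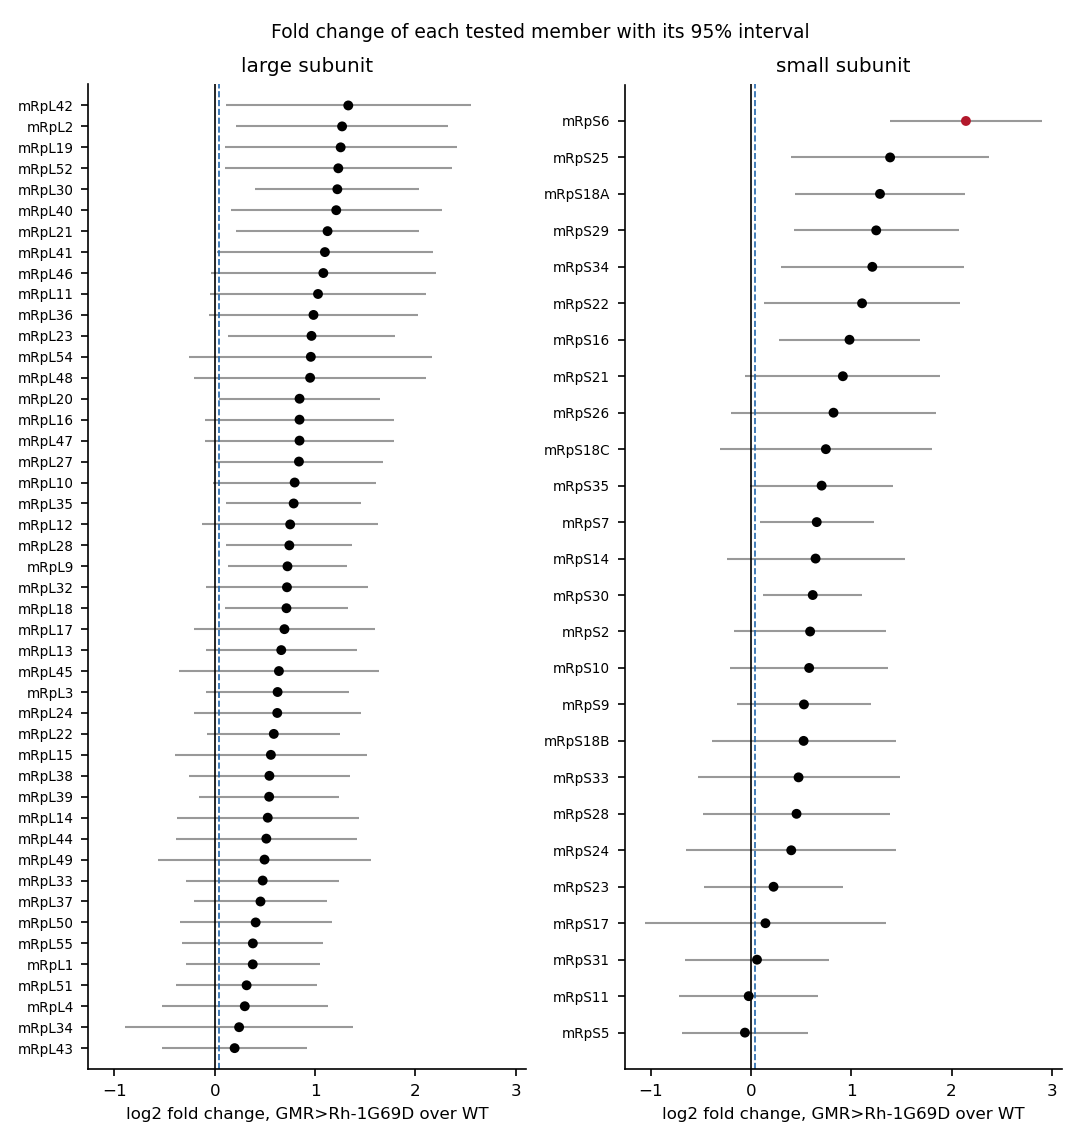
Log2 fold change of GMR>Rh-1G69D over WT for each of the 72 tested members (points) with its 95% interval (bars), large subunit left and small subunit right. The point in red, mRpS6, is the member with an adjusted p under 0.05, the solid line is at 0, and the dashed line marks the median of all tested genes at 0.04.

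Without any model, the 3 GMR>Rh-1G69D libraries lay above the 3 WT libraries for 30 of the 72 members, against 13.6% of all tested genes, and below them for 0 members, against 14.6%. These 30 comprised 17 of 46 large subunit genes and 13 of 26 small subunit genes, with log2 fold changes from 0.59 for mRpL22 to 2.14 for mRpS6. The count depended on WT replicate 3. This library was the highest WT library for 63 of 72 members, whereas it was the highest for 38.5% of all tested genes. It lay above the lowest GMR>Rh-1G69D library for 39 members and above all GMR>Rh-1G69D libraries for 5 (mRpL4, mRpL24, mRpL43, mRpS11 and mRpS33). When only WT replicates 1 and 2 were considered, the GMR>Rh-1G69D libraries were all higher for 57 of 72 members, against 27.9% of all tested genes. The edgeR fit without WT replicate 3 called 33 members higher and 0 lower, against 10.7% and 9.82% of all genes tested in that fit, with a median log2 fold change of 1.03. The largest estimates in that fit were 2.49 for mRpS6, 2.29 for mRpL19, a large subunit protein with a bacterial counterpart, and 2.22 for mRpL2. Leaving out any other library left 1 member called. DESeq2 on all 6 libraries called 7 members higher (mRpL30, mRpS6, mRpS16, mRpS18A, mRpS25, mRpS29 and mRpS34), against 4.01% of all tested genes.

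**Figure D3:**
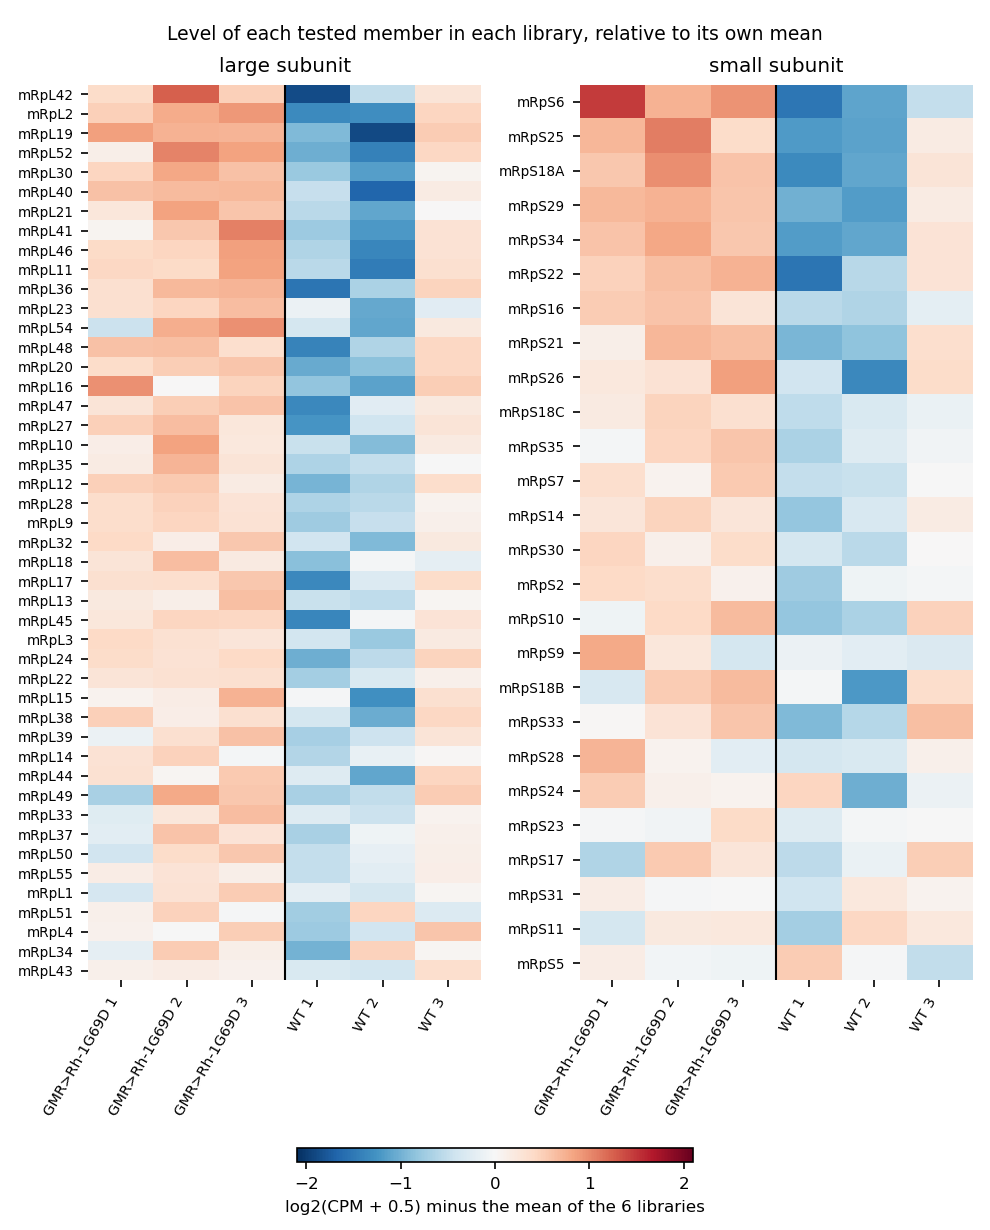
Level of each of the 72 tested members in the 6 libraries, as log2(CPM + 0.5) minus the mean of the 6 libraries for that member, with the large subunit left and the small subunit right, each sorted by fold change. Red is above and blue below the member's own mean, and the WT replicate 3 column is paler than the other WT columns, with this library the highest WT library for 63 of 72 members.

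The member that passed the test was mRpS6 (FBgn0035534), at chromosome 3L, 4364550 to 4365243 on the plus strand (dm6). It encodes the mitochondrial counterpart of bacterial S6, a protein of the small subunit platform that binds the ribosomal RNA next to S18. It had 36.1, 21.6 and 25.0 CPM in GMR>Rh-1G69D, against 4.12, 5.68 and 8.85 CPM in WT. The lowest GMR>Rh-1G69D library was more than 2 times the highest WT library. The mean was 27.6 ± 7.56 CPM in GMR>Rh-1G69D and 6.22 ± 2.41 CPM in WT (SD, n = 3 each). edgeR put the log2 fold change at 2.14 (SE 0.35), with an adjusted p of 0.00505. These values rested on 949, 494 and 582 counts in GMR>Rh-1G69D and on 81, 188 and 259 counts in WT. Under 17 alternative fits, the log2 fold change ran from 1.92 to 2.49 and the adjusted p from 1.12e-07 to 0.0385.

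Relative to the other members, mRpS6 made up 3.45%, 1.87% and 2.17% of the members' summed CPM in GMR>Rh-1G69D, against 0.766%, 0.970% and 0.935% in WT. The 2 sets of shares did not overlap, which is a description, since mRpS6 was singled out by its fold change. On the scale per length, mRpS6 had a mean of 45.3 FPKM (fragments scaled by gene length and library size) in GMR>Rh-1G69D and 9.65 FPKM in WT. No exon of mRpS6 overlaps an exon of another gene. The gene downstream on the same strand, CG33514, begins 190 bases beyond it and had 2.28, 1.88 and 3.95 CPM in GMR>Rh-1G69D, against 0.204, 0.393 and 1.40 CPM in WT (log2 fold change 2.00, SE 0.82, adjusted p = 0.167). Cip4, which starts 448 bases away on the other strand, had a log2 fold change of -0.23 (SE 0.21).

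Next after mRpS6 in order of p came small and large subunit proteins that did not pass the threshold. For mRpS18A, at 3R, 8561917 to 8562593 on the minus strand (dm6), the levels were 31.7, 42.1 and 32.3 CPM in GMR>Rh-1G69D, against 8.04, 9.65 and 25.7 CPM in WT. The genotypes did not overlap, although WT replicate 3 lay near the lowest GMR>Rh-1G69D library, and the log2 fold change was 1.29 (SE 0.39, adjusted p = 0.0795). Flies carry 3 genes related to bacterial S18, and the mammalian counterpart of mRpS18A sits in the large subunit despite its name. The related mRpS18C had 4.18, 5.21 and 4.68 CPM in GMR>Rh-1G69D, against 2.34, 2.78 and 3.25 CPM in WT. The other copy, mRpS18B, had 9.73, 18.3 and 20.003 CPM in GMR>Rh-1G69D, against 12.1, 5.08 and 16.2 CPM in WT. Libraries overlapped for mRpS18B and not for mRpS18C, and their log2 fold changes were 0.53 (SE 0.42) and 0.75 (SE 0.49). Differences between the 3 copies in fold change were not tested.

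Levels of mRpS29 were 20.7, 21.3 and 19.2 CPM in GMR>Rh-1G69D, against 6.01, 5.35 and 14.3 CPM in WT (log2 fold change 1.25, SE 0.38, adjusted p = 0.0798). The human counterpart of this GTP-binding small subunit protein is also known as death-associated protein. The levels of mRpL30, a protein with a bacterial counterpart, were 13.9, 17.9 and 15.5 CPM in GMR>Rh-1G69D, against 5.599, 4.23 and 10.4 CPM in WT (log2 fold change 1.22, SE 0.38, adjusted p = 0.0832). For mRpS25, which has no bacterial counterpart, the levels were 12.2, 16.0 and 9.74 CPM in GMR>Rh-1G69D, against 2.95, 3.11 and 8.41 CPM in WT (log2 fold change 1.39, SE 0.46, adjusted p = 0.09996). In all of these the GMR>Rh-1G69D libraries were above the WT libraries, and the highest WT library was replicate 3. Removing that library brought the adjusted p to 0.00157 for mRpS18A, 0.00293 for mRpS29, 0.00733 for mRpL30 and 0.00609 for mRpS25. The next, mRpS16, the counterpart of bacterial S16, had 14.3, 14.9 and 11.8 CPM in GMR>Rh-1G69D, against 6.36, 6.11 and 8.30 CPM in WT (log2 fold change 0.98, SE 0.32, adjusted p = 0.1001). Without WT replicate 3, its adjusted p was 0.0326.

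Of the members whose genotypes did not overlap, mRpS34, mRpL21, mRpL9 and mRpS30 lay further from the threshold. The mitochondria-specific mRpS34 had a log2 fold change of 1.21 (SE 0.42). The values for mRpL21 and mRpL9, both with bacterial counterparts, were 1.13 (SE 0.42) and 0.73 (SE 0.27). That of mRpS30 was 0.62 (SE 0.23), the smallest standard error among the members. Its mammalian counterpart is a large subunit protein. The mRpS30 levels were 64.1, 50.3 and 61.1 CPM in GMR>Rh-1G69D, against 35.99, 31.3 and 47.2 CPM in WT. The remaining 2 of the 5 largest fold changes belonged to mRpL42 and mRpL2. mRpL42, found only in mitochondria, had 7.30, 13.8 and 7.94 CPM in GMR>Rh-1G69D, against 1.12, 3.66 and 6.70 CPM in WT, with a log2 fold change of 1.33 (SE 0.56). mRpL2, whose bacterial counterpart lies beside the peptidyl transferase centre, had 13.2, 16.0 and 17.7 CPM in GMR>Rh-1G69D, against 3.31, 3.39 and 12.7 CPM in WT. Its log2 fold change was 1.27 (SE 0.49, adjusted p = 0.142) with all libraries and 2.22 (SE 0.35, adjusted p = 0.00276) without WT replicate 3.

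At the other end, 5 members had estimates near 0. mRpS5, whose bacterial counterpart lines the messenger RNA entry channel, had 26.7, 23.0 and 22.5 CPM in GMR>Rh-1G69D, against 35.02, 23.7 and 16.6 CPM in WT. mRpS11, from the platform of the small subunit, had 17.3, 25.8 and 26.2 CPM in GMR>Rh-1G69D, against 13.5, 30.4 and 26.4 CPM in WT. The genotypes overlapped widely for both. Their log2 fold changes were -0.06 with a 95% interval of -0.69 to 0.57 for mRpS5 and -0.02 with a 95% interval of -0.72 to 0.67 for mRpS11, so that a fold change of 2 in either direction lay outside both intervals. Values for mRpS31, mRpS17 and mRpL43 were 0.06 (SE 0.33), 0.14 (SE 0.56) and 0.20 (SE 0.33). The interval of mRpS17, -1.06 to 1.35, was the widest of these, and its level was among the lowest of all members.

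The members were also sorted by the subunit named in their symbol. Thus mRpS18A and mRpS30, whose mammalian counterparts lie in the large subunit, count as small subunit genes here. The median log2 fold change was 0.72 over 46 large subunit genes and 0.63 over 26 small subunit genes. Estimates were above 0 for all 46 large subunit genes and for 24 of 26 small subunit genes. Without WT replicate 3, 22 large and 11 small subunit genes were called higher, in a fit that called 10.7% of all tested genes higher. Members were also classed by the number in their symbol, not by sequence. The 44 tested members classed as having a bacterial counterpart, mRpL55 among them, had a median of 0.71. The 28 classed as mitochondria-specific had a median of 0.67, and mRpS18A and mRpS18B were put in this class although related to bacterial S18. The members lie on all large chromosome arms. Medians by arm were 0.64 for 12 genes on 2L, 0.96 for 11 genes on 2R, 0.82 for 17 genes on 3L, 0.72 for 21 genes on 3R and 0.62 for 11 genes on X. No difference between these groups was tested.

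Because the products stand in a fixed ratio in the ribosome, levels were also compared between members, on the FPKM scale. The median tested member had 14.9, 16.4 and 16.9 FPKM in GMR>Rh-1G69D, against 6.11, 8.30 and 12.98 FPKM in WT. Over all tested genes the medians were 8.55 to 9.02 FPKM in GMR>Rh-1G69D and 6.99 to 8.84 FPKM in WT. Thus the median member was above the median gene in all GMR>Rh-1G69D libraries and in WT replicate 3, and below it in WT replicates 1 and 2. Transcript levels were spread over several fold. The member at the 90th percentile had 3.59 to 4.20 times the FPKM of the member at the 10th percentile in GMR>Rh-1G69D and 3.29 to 5.88 times in WT. The highest member by mean over 6 libraries was mRpS18A, with 62.9 FPKM in GMR>Rh-1G69D and 24.1 FPKM in WT. It was followed by mRpL20 with 47.5 FPKM in GMR>Rh-1G69D and 24.7 FPKM in WT and by mRpL18 with 44.7 FPKM in GMR>Rh-1G69D and 25.97 FPKM in WT. In bacteria, L20 and L18 bind ribosomal RNA during the assembly of the large subunit. mRpL51, found only in mitochondria, had 38.5 FPKM in GMR>Rh-1G69D and 29.8 FPKM in WT. mRpL9 had 41.5 FPKM in GMR>Rh-1G69D and 23.6 FPKM in WT. The lowest tested member was mRpL21, with 6.25 FPKM in GMR>Rh-1G69D and 2.65 FPKM in WT, followed by mRpS17, with 5.91 FPKM in GMR>Rh-1G69D and 5.02 FPKM in WT. Both have bacterial counterparts. The other 3 of the 5 lowest were mitochondria-specific. mRpL45 had 7.40 FPKM in GMR>Rh-1G69D and 4.54 FPKM in WT. mRpL46 had 8.64 FPKM in GMR>Rh-1G69D and 3.76 FPKM in WT and mRpL54 had 9.62 FPKM in GMR>Rh-1G69D and 4.57 FPKM in WT. The human counterpart of mRpL45 is known to help anchor the ribosome to the inner membrane.

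The order of the members was similar in the genotypes. Pearson's r between the log2 mean FPKM of GMR>Rh-1G69D and of WT was 0.86 and Spearman's rho was 0.83, across 72 genes that share their libraries and lengths. By mean FPKM among the 72, mRpS5 had rank 46 in GMR>Rh-1G69D and rank 12 in WT, and mRpS6 had rank 3 in GMR>Rh-1G69D and rank 34 in WT. In GMR>Rh-1G69D replicate 1, mRpS6 had the highest FPKM of all members, at 59.7, whereas in WT it had 5.82, 9.77 and 13.4 FPKM, close to the median member.

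**Figure D4:**
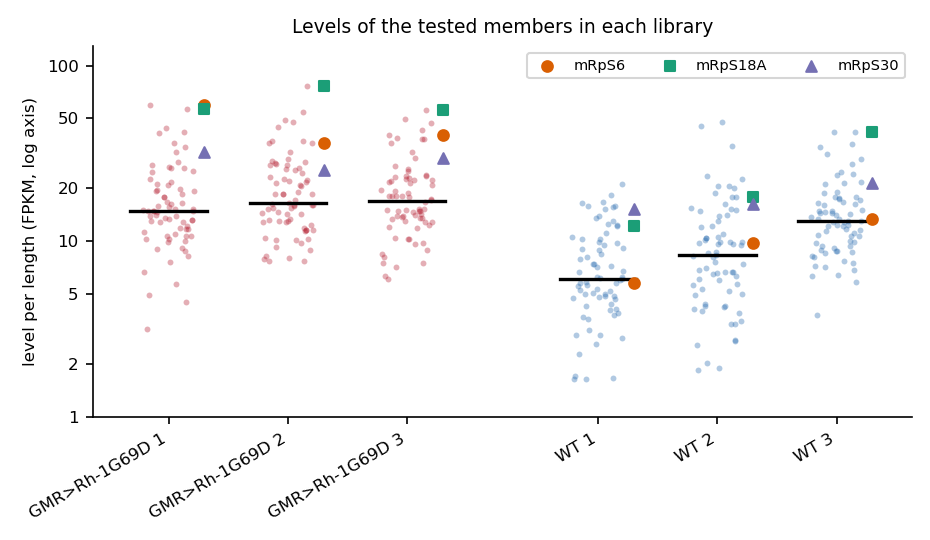
FPKM (log axis) of the 72 tested members in each of the 6 libraries (points), with a line at the median of each library. Larger symbols set at the right of each library repeat mRpS6, mRpS18A and mRpS30, and mRpS6 lies near the median line in WT and far above it in GMR>Rh-1G69D.

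Members are short genes. Their median length was 783 bases, and 50 of the 72 (69.4%) were under 1000 bases, against 22.4% of all tested genes. In a fit with an offset for gene length in each library, the median log2 fold change of the members was 0.49 in place of 0.70 and mRpS6 was the 1 member called. Short genes packed closely also share transcribed bases with neighbours. The exons of 30 tested members overlapped no exon of another gene in the Ensembl annotation of dm6, and these had a median log2 fold change of 0.65. For 41 tested members an exon overlapped a gene on the other strand, by more than 200 bases in 6 cases. Whether the counting used strand was not given in the sources used here, so reads from such pairs cannot be told apart. For 2 tested members, mRpL13 and mRpS14, the overlap was on the same strand, and it covered 35.2% of mRpL13 and 3.76% of mRpS14.

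The untested member was mRpL53, listed at 0 counts in all 6 libraries. It lies at 2R, 13954195 to 13955664 on the plus strand (dm6), and all of its 829 exon bases are also exon bases of CG33155 on the same strand. A count of 0 allowed up to 0.0907 to 0.153 CPM per library (3 counts, counting error only) for reads assigned to it alone. CG33155 itself had 57 to 114 counts in GMR>Rh-1G69D and 62 to 117 counts in WT. The same held for 3 other nuclear genes of mitochondria. mtTFB1, DNApol-gamma35 and Tim9b were at 0 counts in every library, and 100% of their exon bases belong also to Ccdc56, GatC and Pstk on the same strand. The zeros of these 4 genes therefore do not show that they were silent.

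None of the other tested genes of mitochondrial gene expression and import passed the test, which 1.24% of all tested genes passed as higher and 3.72% as lower. A pair of mitochondrial ribosomal protein genes carry names of another kind and are not among the 73. bonsai, which encodes the counterpart of bacterial S15, had 21.4, 15.4 and 23.2 CPM in GMR>Rh-1G69D, against 5.90, 4.66 and 14.6 CPM in WT (log2 fold change 1.25, SE 0.42, adjusted p = 0.103). tko, the counterpart of bacterial S12, had 20.95, 27.8 and 22.7 CPM in GMR>Rh-1G69D, against 16.3, 12.2 and 22.1 CPM in WT (log2 fold change 0.50, SE 0.29, adjusted p = 0.311). The genotypes did not overlap for bonsai, and for tko WT replicate 3 lay above the lowest GMR>Rh-1G69D library. Without WT replicate 3, the adjusted p of bonsai was 0.00396 and that of tko 0.0797.

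The 8 tested translation factors, which load, elongate and recycle the mitochondrial ribosome, had a median log2 fold change of 0.48, with 0 called. The 16 genes listed as mitochondrial aminoacyl-tRNA synthetases, Slimp among them, had a median of 0.16, with 10 above 0 and 0 called. The 11 tested genes of mitochondrial DNA maintenance and transcription had a median of 0.46, with 0 called. Among them, TFAM, which packages the mitochondrial genome, had a log2 fold change of 0.53, and tam, the catalytic subunit of its DNA polymerase, had one of -0.84. The 12 tested genes of mitochondrial protein import, listed by their Tim and Tom symbols, had a median of 0.45, with 0 called. Across these lists, with bonsai, tko and the RNAs of the mitochondrial genome, edgeR with all libraries called 0 of 66 tested genes. Over all tested genes it called 1.24% higher and 3.72% lower. At an unadjusted p under 0.05, 12 of the 66 were higher, against 11.0% of all tested genes, and 2 were lower, against 12.8%. DESeq2 called 5 higher (7.58%, against 4.01% of all tested genes), and edgeR without WT replicate 3 called 10 higher (15.2%, against 10.7%).

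The RNA partners of these proteins varied widely between WT libraries. RNAs of the mitochondrial genome were also counted in these nuclear preparations, and how they came to be there was not tested. The 17 tested ones had a median log2 fold change of 0.61 with 0 called. The large ribosomal RNA, mt:lrRNA, had 16863, 13091 and 15117 CPM in GMR>Rh-1G69D, against 23834, 8170 and 9463 CPM in WT. The small ribosomal RNA, mt:srRNA, had 7371, 5264 and 4887 CPM in GMR>Rh-1G69D, against 6582, 3009 and 2217 CPM in WT. Both were highest among WT libraries in replicate 1. No relation between the RNAs and the proteins was tested.

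Genes outside mitochondrial translation showed the same direction. Over the 88 tested cytosolic ribosomal protein genes, the median of the log2 fold changes was 0.85, with 11 higher and 0 lower (over all tested genes, 1.24% were higher and 3.72% lower). The 11 were RpL29, RpL32, RpL34a, RpL36A, RpL38, RpL39, RpLP1, RpLP2, RpS21, RpS25 and RpS28b, with log2 fold changes from 1.02 for RpL34a to 1.25 for RpS21. The 71 tested nuclear genes of oxidative phosphorylation, many of whose products join those made on the mitochondrial ribosome (SdhA to SdhD do not), had a median of 0.84, with 5 higher and 0 lower. The 5 were ATPsynB, ATPsynE, CG7630, COX8 and ND-AGGG, with log2 fold changes from 0.95 for ND-AGGG to 1.27 for COX8. Without WT replicate 3, 82 cytosolic ribosomal protein genes and 53 oxidative phosphorylation genes were called higher, in a fit that called 10.7% of all tested genes higher, whereas leaving out any other library left between 0 and 2 in each list. A difference in median between these lists and the mitochondrial ribosomal protein genes was not tested.

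**Figure D5:**
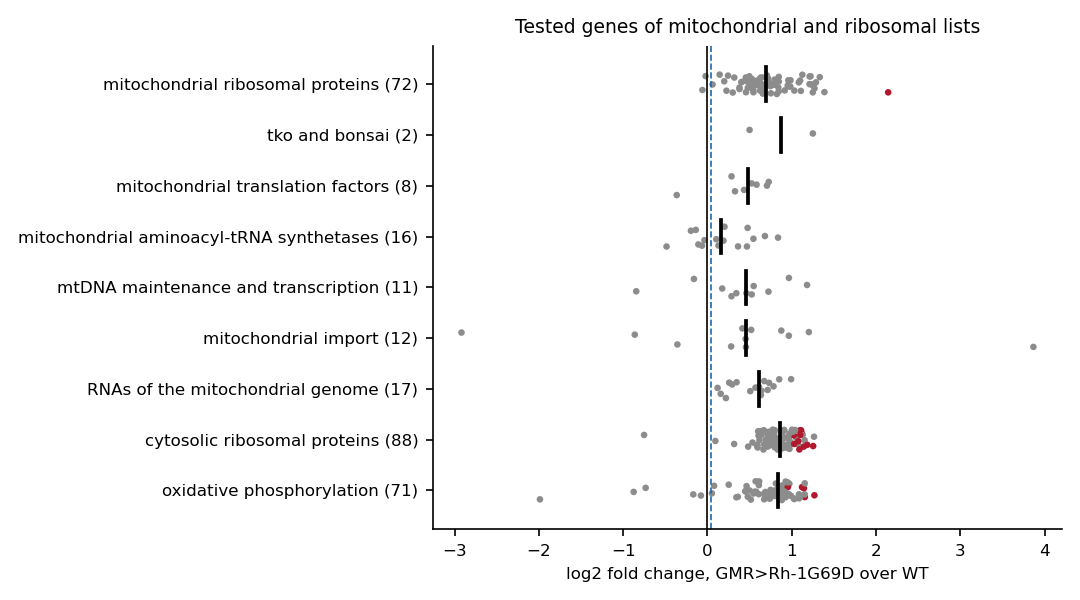
Log2 fold change of GMR>Rh-1G69D over WT for the tested genes of 9 lists (points, number tested in brackets), red at an adjusted p under 0.05, with a black bar at the median of each list and a dashed line at the median of all tested genes. Medians lie between 0.16 for the mitochondrial aminoacyl-tRNA synthetases and 0.88 for tko and bonsai, and the mitochondrial ribosomal proteins lie at 0.70.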

How the data were processed

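Per the labels and the study's methods, the authors sequenced ribosome-depleted total RNA (low-input Nugen Ovation Trio kit) in paired ends, aligned it to dm6 with STAR (2.6.1d) and counted it per gene with featureCounts (Subread 1.6.3). The annotation release and the strand setting were not given in the sources used here. Deposited were raw counts per gene, normalised counts (a signal equal to the raw count divided by 1 size factor per library) and FPKM. Raw counts were tested with edgeR (4.0.16, with filterByExpr, TMM, glmQLFit and glmQLFTest, R 4.3.3) over all 6 libraries with Benjamini-Hochberg adjustment over all genes tested. The fit was also run on simulated counts in which 200 genes had planted changes, all larger than the median change of the members. That run held no outlying library and does not bear on changes of the members' size. Standard errors came from the ratio of each log2 fold change to the square root of its F statistic. CPM used TMM-scaled library sizes. Alternatives were DESeq2 (1.42.0), limma (3.58.1) on normalised counts and FPKM, other filters and scalings, a length offset, a replicate block and omission of each library. The labels do not say whether samples of a genotype came from separate crosses, so p-values measure the spread between these samples. Gene positions came from the Ensembl annotation of dm6, which matched all 73 members by symbol.

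Named with values were members past the threshold, the 10 with the smallest p among those whose genotypes did not overlap, the 5 highest and 5 lowest by fold change and by FPKM, paralogs of the same number, untested members, tko, bonsai and companion genes past the threshold. Members and gene lists were chosen with earlier results of these data known. A planned search for promoter motifs was not run, as no promoter sequences were used here.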

Additional observations from a re-analysis of the deposited data

How the results depend on the processing

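mRpS6 was called under all 17 alternative fits, no member was called lower under any of them, and, among the named members, the directions of mRpS5, mRpS11, mRpS17, mRpS31 and mRpL43 changed with the setting. The number of members called, 1, was 7 with DESeq2 (4.01% of all tested genes were higher in that fit), 2 with at least 10 counts required in every sample (1.99%), 3 with limma on normalised counts (2.01%), 3 with limma on FPKM at a pseudocount of 1 (1.44%) or 0.1 (1.24%), 5 at an adjusted p under 0.1 (3.31%) and 1 to 33 with 1 library left out (0.44% to 10.7%). The highest value was without WT replicate 3. The cause was not tested. The number of companion genes called, 0, was 5 with DESeq2, 1 with no filter (1.38%), 1 with at least 10 counts, 1 with robust dispersion (1.61%), 1 with limma on normalised counts, 2 with limma on FPKM at either pseudocount and 0 to 10 with 1 library left out. The median log2 fold change of the members lay between 0.49 (gene length offset) and 1.03 (without WT replicate 3), and the ratio of summed levels between 1.59 (other size factors) and 1.99 (without WT replicate 3, an alternative chosen after seeing the data). Whether same-numbered replicates pair cannot be told from 3 libraries per genotype. The correlations of their deviations from the group means were -0.002, 0.07 and 0.16, and those of differently numbered replicates ran from -0.12 to 0.04. A replicate block gave 4 members (mRpL2, mRpS6, mRpS18A and mRpS29) and 2 companion genes (2.14% of all tested genes), and the gene length offset with the replicate block gave 2 members (1.46%). Cytosolic ribosomal protein genes called ranged from 0 to 82 and oxidative phosphorylation genes from 0 to 53. Both highest values came from the fit without WT replicate 3 (10.7% of all tested genes higher). Leaving out any other library left between 0 and 2 in each list (0.44% to 0.557% of all tested genes higher). Members held 22 to 1687 counts per library, and the median standard error of a log2 fold change was 0.39.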

Other observations

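Mitochondrial ribosomal protein genes were compared with genes that sit head to head with them. How often other genes have such a neighbour was not counted. The comparison was chosen after the values were seen. For 56 tested members a protein-coding gene starts within 1000 bases on the other strand, with a median distance of 290 bases, and 55 of these partners were tested. The partners had a median log2 fold change of 0.13 (GMR>Rh-1G69D over WT), against 0.72 for the members beside them. Over all tested genes the median was 0.04. Of the 55 partners, 32 were above 0 (58.2%, against 52.5% of all tested genes), 0 were called higher (against 1.24%) and 2 were called lower (3.64%, against 3.72%), so that their counts lay near those of all genes. In 48 pairs the partner had a lower estimate than its member, which is a description, since nearly all members were already known to be above 0. FoxK, which starts 64 bases from mRpL2, had a log2 fold change of -0.31, against 1.27 for mRpL2. Taz, which starts 20 bases from mRpL18 and remodels the mitochondrial lipid cardiolipin, had one of -0.18, against 0.72 for mRpL18. The partner rept, 279 bases from mRpL21, lay closer to its member, at 0.94 against 1.13. The difference between members and partners was not tested.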
